A study of Mus musculus with 6 samples.

Results

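The genes described here encode the proteins of the cytosolic ribosome. They are the rows of a gene table whose symbol is Rpl or Rps with a number (and at most a short suffix), or is Rplp0, Rplp1, Rplp2 or Rpsa; the Rps6k kinases were left out. This rule found 80 of the 15643 genes in the table, 48 with a symbol of the large subunit (60S) and 32 with a symbol of the small subunit (40S). Membership rested on names alone and on no measured value. The genes were chosen with earlier results of these data known, and Rps2 was named beforehand for a check of single libraries. The cells were mature medullary thymic epithelial cells, the mTEChi fraction, isolated by cell sorting from the thymus of 4.5-week-old NOD mice. NOD is an inbred strain prone to autoimmune diabetes. In 3 libraries the mice were labelled Aire+/+ (libraries 745, 750 and 753) and in the other 3 Aire-/- (libraries 746, 748 and 749). Aire encodes a transcriptional regulator that lets these cells express genes of peripheral tissues, and its loss causes the human syndrome APS1 named in the series title. Libraries were made by MARS-seq, which reads the 3′ ends of transcripts and counts unique molecular identifiers (UMIs), so that each captured molecule counts once. The labels do not say whether each library came from 1 mouse or from a pool, so the p-values below measure only the spread between these libraries, which may be technical.

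A ribosome needs its proteins in matched amounts, and most ribosomal proteins that find no partner are degraded. Their mRNAs are among the most abundant in most cells. Many of them begin with a C and a run of pyrimidines, the 5′ terminal oligopyrimidine (TOP) tract, through which mTOR signalling and the binding protein LARP1 control their translation. The genes also have many processed pseudogenes, copies of the mRNA inserted elsewhere in the genome, and a read from a 3′ end can match the gene and its copies equally well.

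Several facts about the libraries bear on every result below. Library totals were 2736932 to 2887321 UMIs in Aire+/+ and 1014581 to 1960802 in Aire-/-, so every Aire+/+ library was deeper than every Aire-/- library. Aire itself stood at 2063, 2241 and 2447 CPM (UMIs of the gene per 1000000 UMIs of the library, scaled as described below) in Aire+/+ and at 4899, 4464 and 5118 in Aire-/- (edgeR adjusted p = 7.76e-05), which does not follow the genotype labels. The part of the gene that the Aire-/- allele lacks is not given in the sources used here, and reads of the 3′ end do not check a deletion elsewhere in the gene. Ins2, an insulin gene known to depend on Aire in these cells, had 110, 102 and 93 UMIs in Aire+/+ and 1, 0 and 0 in Aire-/-. Genotypes are named here as labelled. Markers fixed for mTEChi (12 of 12 in the table) summed to 27004 to 32062 CPM in Aire+/+ and 47463 to 54487 CPM in Aire-/-, and 5 of them were called higher in Aire-/- (Aire, Cd80, Cd86, H2-Aa and H2-Ab1). H2-Aa (means of 10772 and 18779 CPM) and H2-Ab1 (11921 and 23572 CPM) held most of that sum, and Fezf2 (-0.14), Cd40 (-0.04), Tnfrsf11a (-0.41), Krt5 (-0.24) and Krt14 (-0.16) had log2 fold changes below 0 and no call. Cortical epithelial markers (6 of 6) ran from 643 to 795 CPM and from 1061 to 1296 CPM, with 5 higher in Aire-/-. Dendritic cell and macrophage markers (5 of 8 in the table) ran from 1246 to 1400 CPM and from 1500 to 2488 CPM, with 1 higher. Stromal markers (4 of 6) ran from 44.6 to 83.0 CPM and from 129 to 598 CPM, with 2 higher and the highest sum in library 746. Sums of thymocyte (10 of 11), B cell (5 of 5) and endothelial (4 of 4) markers overlapped between the genotypes, and no marker in the table was at 0 in any library. The part of these cells, and of the depth, in the results below was not tested. In bulk samples, fewer cells of a type and less RNA per cell cannot be told apart.

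Ribosomal protein mRNAs were abundant in every library, and their summed share did not separate the genotypes. The share was 15.9%, 16.6% and 18.01% of UMIs in Aire+/+ libraries 745, 750 and 753 and 15.5%, 18.4% and 18.5% in Aire-/- libraries 746, 748 and 749. The 2 genotypes overlapped, because library 746 had the lowest share of all. The means were 16.8% ± 1.07 (SD, n = 3) and 17.5% ± 1.68 (SD, n = 3), a difference of 0.643 percentage points (exact two-sided permutation test, p = 0.6; with 3 against 3 libraries the smallest possible p is 0.1). Genes of the 60S subunit held 8.63%, 9.05% and 9.93% of UMIs in Aire+/+ and 8.95%, 10.2% and 10.2% in Aire-/- libraries (exact permutation p = 0.3). Genes of the 40S subunit held 7.28%, 7.54% and 8.08% in Aire+/+ and 6.59%, 8.19% and 8.33% in Aire-/- libraries (exact permutation p = 0.9). The 95% Wilson intervals of these shares reached at most 0.0705 percentage points to either side, for counting error only, so the spread between libraries was far larger than the counting error. Without libraries 753 and 746 the difference between the genotypes became 2.20 percentage points. Library 753 had the highest share in Aire+/+ and 746 the lowest in Aire-/-, so leaving out both had to widen the difference. With all 6 libraries, as a share of the TMM-scaled library size, the difference was 2.97 points.

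**Figure D1:**
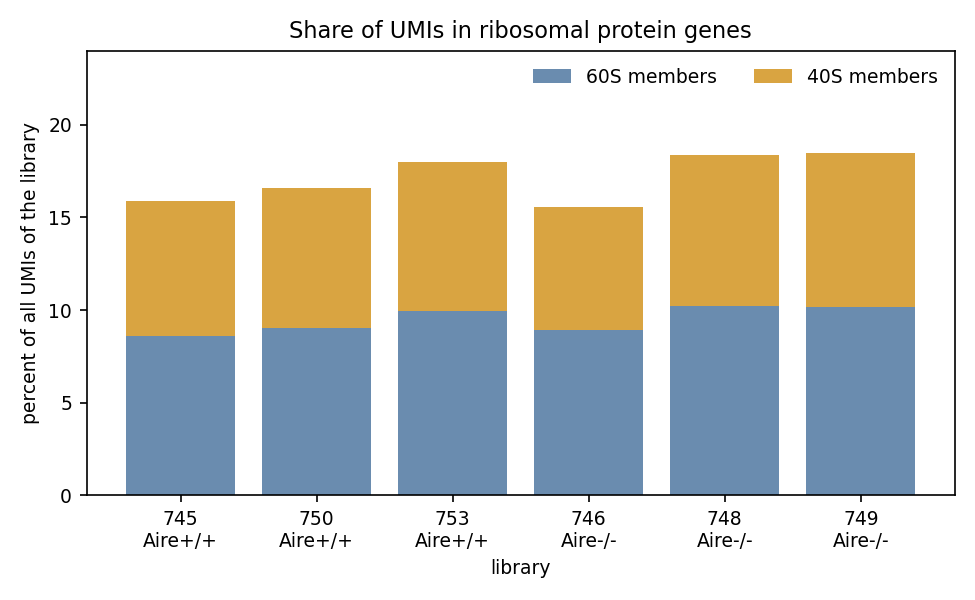
Percent of the UMIs of each library (y axis) that fall in ribosomal protein genes, for the 6 libraries (x axis), with genes of the 60S and 40S subunits stacked. The shares run from 15.5% in Aire-/- library 746 to 18.5% in Aire-/- library 749, and the 2 genotypes overlap.

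Libraries of the same genotype also differed in the general level of these genes. After scaling, a ribosomal protein gene stood at a median log2 distance from its own mean of -0.25 in library 745, -0.14 in 750 and 0.02 in 753, and of -0.21 in 746, 0.14 in 748 and 0.23 in 749. Over all tested genes the same medians lay between -0.06 and 0.01. Of the 77 genes with enough UMIs for the test described below, 34 had their lowest level in library 746 and 32 in library 745, while 40 had their highest level in library 749. Library 746 was also the highest library for 12 genes, so it was not low for every gene. That library had the fewest UMIs and the highest sum of stromal markers, and the part of either in its low ribosomal protein level was not tested.

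Genes were then compared one by one. Levels are UMIs over the TMM-scaled library size (CPM), log2 fold changes are Aire-/- over Aire+/+ with their standard error (SE), and a gene was called when the Benjamini-Hochberg adjusted p of edgeR's quasi-likelihood test over 11956 tested genes was under 0.05. Of the 80 genes, 77 passed the filter on low counts and 3 did not (Rpl21, Rpl3l and Rps15a). Of the 77, 7 were called higher in Aire-/- (Rpl10, Rpl10a, Rplp2, Rplp0, Rps9, Rpl7a and Rpl13a), 2 were called lower (Rpl39 and Rps3) and 68 were not called. The share called higher, 9.09%, stood beside 8.59% of all tested genes, and the share called lower, 2.60%, beside 12.1%. The counts moved with single libraries, as did the shares of all tested genes. Without Aire+/+ library 745 there were 3 higher (3.9%, beside 5.39% of all tested genes), without 750 there were 2 (2.6%, beside 6.1%) and without 753 there were 6 (7.89%, beside 5.23%). Without Aire-/- library 748 there were 4 higher (5.19%, beside 6.25%) and without 746 there were 23 (29.9%, beside 7.79%). Without 749 there were 10 higher (13%, beside 8.8%) and 6 lower (7.79%, beside 14.5%).

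The typical shift was small. The median log2 fold change of the 77 genes was 0.22, beside -0.02 over all tested genes. Of the 77, 59 had a value above 0, and 67 lay within 0.5 of 0 on the log2 scale. The quartiles of the values were 0.01 and 0.39. The lowest value was -0.71, for Rpl5, and the highest 1.30, for Rps2, a gene described below. In 19 genes (24.7%) every Aire-/- library was above every Aire+/+ library, beside 16.3% of all tested genes, and in 4 (5.19%) every Aire-/- library was below, beside 20.2%. Genes of the 60S subunit had a median log2 fold change of 0.32, with 46 tested, 6 called higher (13%) and 1 lower (2.17%). Genes of the 40S subunit had one of 0.19, with 31 tested, 1 called higher (3.23%) and 1 lower (3.23%). Of all tested genes, 8.59% were called higher and 12.1% lower. The difference between the subunits was not tested. Direction here depends on scaling. With library totals in place of TMM factors, the median of all genes moved from -0.02 to -0.22 and that of the ribosomal protein genes from 0.22 to 0.02, so their distance stayed at 0.24, while the calls changed to 4 higher and 5 lower.

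**Figure D2:**
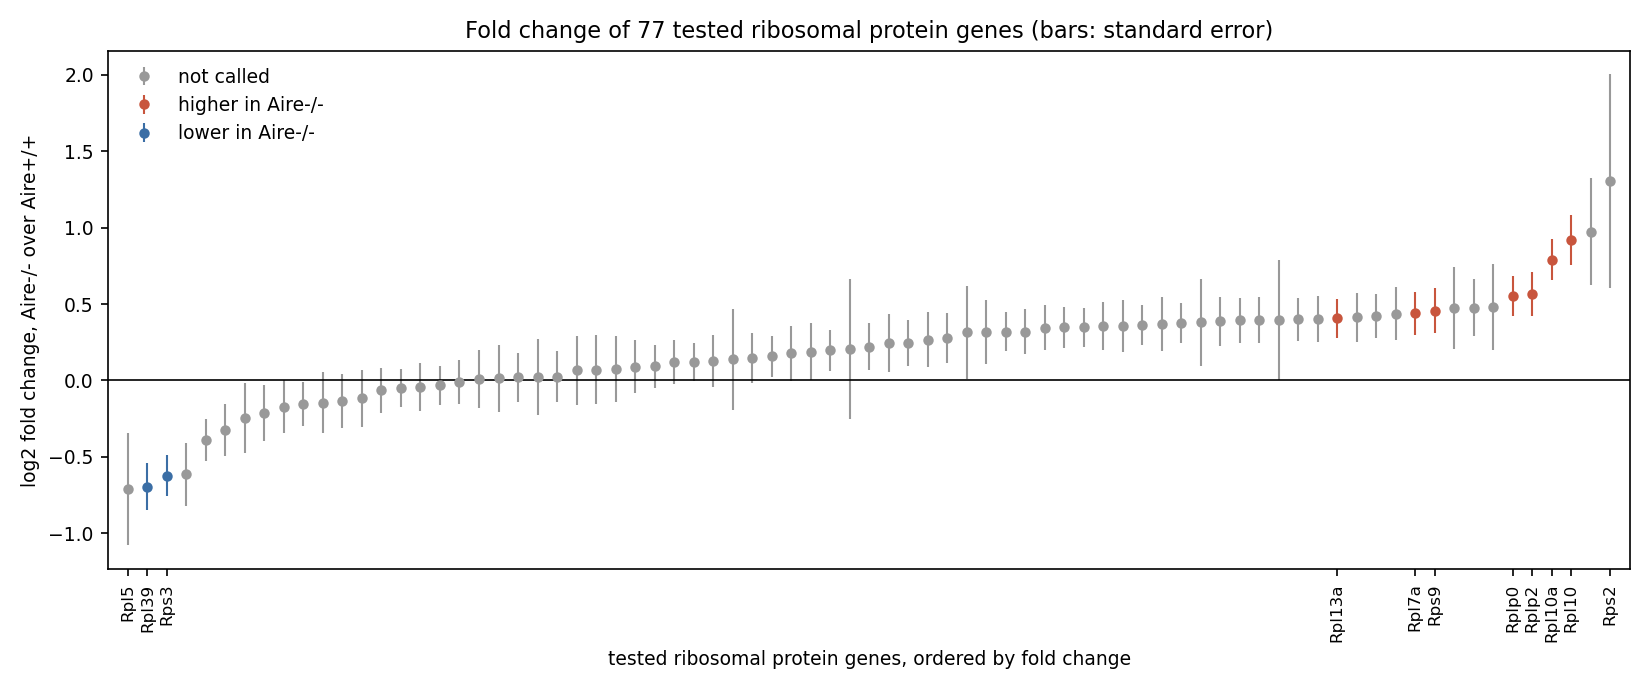
Log2 fold change of Aire-/- over Aire+/+ (y axis) for the 77 tested ribosomal protein genes, ordered by fold change (x axis), with standard errors as bars, called genes in colour, and names under the called genes, Rpl5 and Rps2. The 7 genes called higher lie between 0.41 and 0.92, the 2 called lower at -0.62 and -0.69, and Rps2 has the highest value with a far wider bar and no call.

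The stalk proteins P0, P1 and P2 form the flexible arm of the 60S subunit that recruits translation factors. Rplp0, the anchor of the stalk, stood at 2027, 2016 and 2381 CPM in Aire+/+ and at 3262, 3003 and 3156 CPM in Aire-/-. The groups did not overlap, and the log2 fold change was 0.55 ± 0.13 (SE; edgeR adjusted p = 0.00912). Rplp2 stood at 4692, 5289 and 6055 CPM in Aire+/+ and at 7213, 8247 and 8318 CPM in Aire-/-. It did not overlap either (log2 fold change 0.57 ± 0.14, edgeR adjusted p = 0.0130). Rplp1, the partner of P2, stood at 5735, 6413 and 7455 CPM in Aire+/+ and at 7566, 8975 and 9256 CPM in Aire-/-. Its groups were apart by a narrow margin, and its difference did not pass the test (0.40 ± 0.15, edgeR adjusted p = 0.0824). The call of Rplp0 was lost without library 750 (edgeR adjusted p = 0.0624), and that of Rplp2 without 745 (0.0533) or 750 (0.0666). No other gene shared a 50-base word with the 3′ end of Rplp0 (chr5:115559467-115563727, + strand, mm10). For Rplp2 the specific share of words was 19.9% to 93.6% by transcript end, and for Rplp1 it was 33.1%. Wdr89, which has its own row in the table, held 80.1% of the words at the least specific end of Rplp2. The part of reads from copies in these values was not tested.

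Rpl10 and Rpl10a had the largest changes among the genes called higher. Rpl10 encodes uL16, the last protein to join the 60S subunit, which completes the site where tRNAs bind. It stood at 1157, 1034 and 1436 CPM in Aire+/+ and at 2059, 2096 and 2709 CPM in Aire-/-. Every Aire-/- library was well above every Aire+/+ library (log2 fold change 0.92 ± 0.16, edgeR adjusted p = 0.00122). Rpl10a encodes uL1, the protein of the mobile L1 stalk at the exit for tRNAs. It stood at 1241, 1408 and 1518 CPM in Aire+/+ and at 2576, 2366 and 2267 CPM in Aire-/-, again with no overlap (0.79 ± 0.13, edgeR adjusted p = 0.000934). These were the only ribosomal protein genes called higher in each of the 12 other settings run. Both are genes whose 3′ ends other genes share. None of the 50-base words in the last 300 bases of Rpl10 (chrX:74270812-74273135, + strand, mm10) was specific to it, and 13 other genes held at least 1 of them. For Rpl10a (chr17:28328471-28331033, + strand, mm10) the specific share was 6.77% to 30.3% by transcript end, with 5 such genes. How the authors' counting treated reads that match several genes is not given in the sources used here, so the values of these genes may hold reads of copies or lack some of their own.

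The other 3 genes called higher had smaller changes. Rpl7a, a protein of the 60S surface, stood at 1572, 1879 and 1984 CPM in the Aire+/+ and 2737, 2344 and 2284 CPM in Aire-/- (log2 fold change 0.44 ± 0.14, edgeR adjusted p = 0.0453), and 66 other genes share words of its 3′ end. Rpl13a, which is also known to silence translation of inflammatory mRNAs outside the ribosome, stood at 3076, 3421 and 3498 CPM in Aire+/+ and 4554, 4335 and 4348 CPM in Aire-/- (0.41 ± 0.13, edgeR adjusted p = 0.0404). Rps9, which binds early to the ribosomal RNA of the 40S subunit, stood at 2222, 2605 and 2922 CPM in Aire+/+ and 3230, 3486 and 3917 CPM in Aire-/- (0.46 ± 0.15, edgeR adjusted p = 0.0421). In all of them the groups did not overlap. Each lost its call with library totals alone (edgeR adjusted p = 0.190 for Rpl7a, 0.188 for Rpl13a and 0.135 for Rps9). Rpl7a and Rpl13a also lost it without any 1 of libraries 745, 750, 753, 746 and 748 (edgeR adjusted p of 0.0657 to 0.176 and of 0.0526 to 0.133), and Rps9 without any 1 of 745, 750, 748 and 749 (0.0740 to 0.164). Rpsa, a 40S protein also known as the laminin receptor, had the same pattern with 3379, 3631 and 3565 CPM in Aire+/+ and 4457, 4321 and 4687 CPM in Aire-/-, and did not pass the test (0.35 ± 0.13, edgeR adjusted p = 0.0718).

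The 2 genes called lower kept their call in each of the 12 other settings. Rpl39 encodes a short protein at the exit tunnel of the 60S subunit. It stood at 511, 561 and 709 CPM in Aire+/+ and at 323, 383 and 392 CPM in Aire-/-, with no overlap (log2 fold change -0.69 ± 0.15, edgeR adjusted p = 0.00511). Rps3 encodes uS3 at the entry of the mRNA channel of the 40S subunit, a protein also linked to DNA repair. It stood at 994, 1049 and 1142 CPM in Aire+/+ and at 613, 693 and 759 CPM in Aire-/-, with no overlap (-0.62 ± 0.13, edgeR adjusted p = 0.00468). Both 3′ ends were mostly specific, with 78.1% of words for Rpl39 (chrX:37082520-37085402, - strand, mm10) and 92.8% to 100% for Rps3 (chr7:99477896-99483738, - strand, mm10). Rpl10 and Rpl39 lie on chromosome X, as do Rpl36a (-0.33, edgeR adjusted p = 0.214) and Rps4x (0.07, edgeR adjusted p = 0.856). These 4 X-linked genes therefore hold 1 call in each direction.

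**Figure D3:**
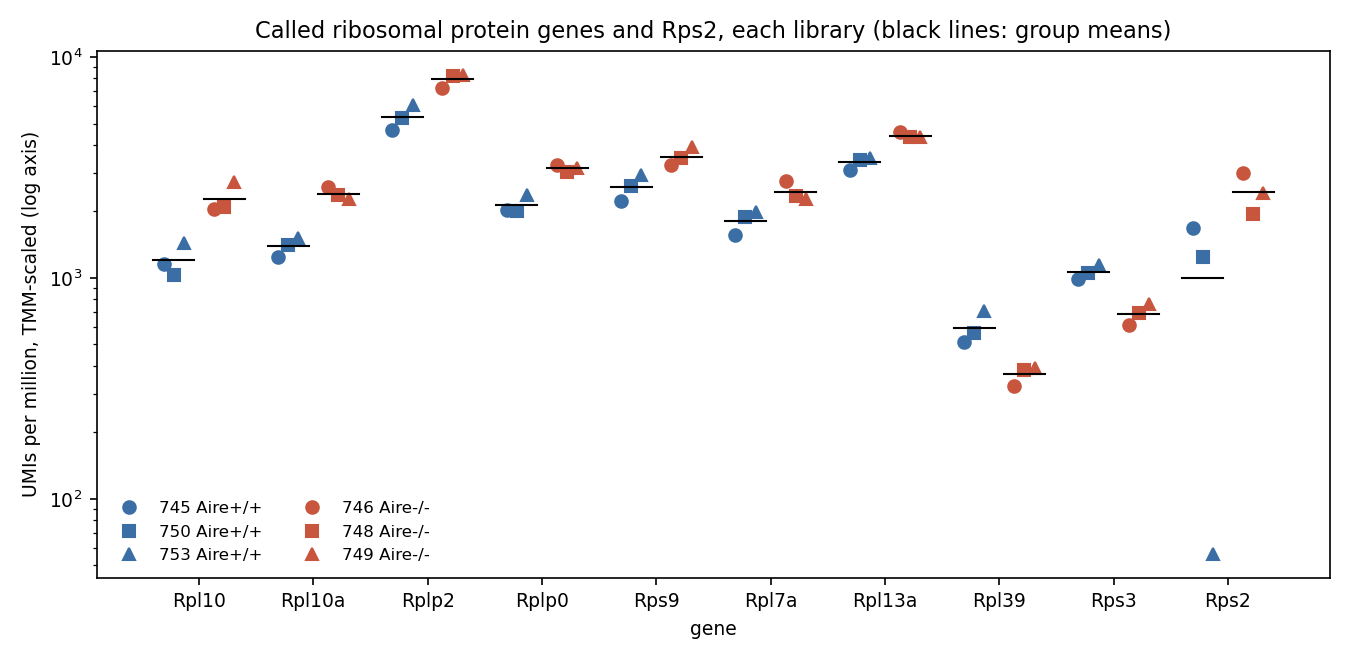
TMM-scaled CPM on a log axis (y) in each of the 6 libraries for the 9 called ribosomal protein genes and Rps2 (x axis), with group means as black lines. In the 9 called genes the 3 Aire-/- libraries lie all above or all below the 3 Aire+/+ libraries, and the Aire+/+ library 753 lies far below the rest for Rps2 alone.

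The authors' deposited table, which selects genes on an adjusted p and at least a 2-fold change, selected 0 of the 80 genes and 1474 of all 15643. Of the 80, 17 had an adjusted p under 0.05 in the authors' deposited table, 13 of them higher (16.2%, beside 5.31% of all genes in the authors' deposited table) and 4 lower in Aire-/- (5.0%, beside 9.79%). All 9 genes called here were among the 17.

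Because TOP tracts join these genes, their promoters were searched in a RefSeq table (build GRCm38.p6) that reaches from 250 bases before to 50 after each annotated start. It held 61 of the 80 genes, among 27025 genes in all. A C followed by at least 4 bases that are each C or T, beginning within 5 bases of the start on the gene's own strand, was found in 30 of the 61 (49.2%) and in 21.2% of all genes. On the other strand the same search found it in 14.8% of the 61 and in 24.4% of all genes. In the full window on either strand, CCGGAAG (the core bound by ETS-family factors such as GABP) was found in 24 of 61 (39.3%, and 9.93% of all genes), AAGATGGC (YY1) in 6 (9.84%, and 3.19%) and GGGCGG (the GC box bound by Sp1) in 38 (62.3%, and 38.2%). Of the 30 genes with a tract, 29 were tested, and 4 were called higher (13.8%, beside 8.59% of all tested genes) and 1 lower (3.45%, beside 12.1%). The median log2 fold change was 0.32 with a tract and 0.20 in the 30 tested genes without one, a difference that was not tested. The 5 called genes with a tract and Rps2 are shown, with tracts from 5 bases (Rpl39) to 14 bases (Rpl13a). How alike the sequences are was not tested. Each sequence gives 20 bases before and 20 from the annotated start, 5′ to 3′ on the gene's strand, with the tract in capitals.
Rplp2 (called higher), chr7:141447631-141447670, + strand: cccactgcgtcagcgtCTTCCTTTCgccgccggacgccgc
Rpl7a (called higher), chr2:26910787-26910826, + strand: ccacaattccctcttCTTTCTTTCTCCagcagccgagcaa
Rps9 (called higher), chr7:3704021-3704060, + strand: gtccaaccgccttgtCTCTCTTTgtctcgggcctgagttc
Rpl13a (called higher), chr7:45128726-45128765, - strand: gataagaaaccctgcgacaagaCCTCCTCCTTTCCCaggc
Rpl39 (called lower), chrX:37085203-37085242, - strand: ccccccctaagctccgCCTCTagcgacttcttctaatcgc
Rps2 (not called), chr17:24720043-24720082, + strand: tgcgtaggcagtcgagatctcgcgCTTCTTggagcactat
The capitals begin at the first such C inside the window, so a run of pyrimidines may reach further upstream than they show, as in Rpl7a. These are annotated starts and were not measured here, since MARS-seq reads the other end of the transcript.

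Rps2 was the one ribosomal protein gene nearly missing from a library. It encodes uS5, a 40S protein near the mRNA entry channel that takes part in keeping decoding accurate. It had 5142, 3774 and 168 UMIs in Aire+/+ libraries 745, 750 and 753 and 2919, 3623 and 3983 UMIs in Aire-/- libraries 746, 748 and 749. On the scaled level these were 1686, 1247 and 56.4 CPM against 2997, 1949 and 2435 CPM, so library 753 held 3.10% of the median of the 6 libraries, although it was the deepest. The log2 fold change over all libraries was the highest of all 77 genes, 1.30 ± 0.70 (SE), and did not pass the test (edgeR adjusted p = 0.228). Without library 753 it was 0.74 ± 0.21 and passed (edgeR adjusted p = 0.0336), and without both 753 and 746 it was 0.57 and did not (edgeR adjusted p = 0.0619). Library 753 was singled out by its own Rps2 level. The fits without it are therefore no independent support for a difference between the genotypes.

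No other ribosomal protein gene behaved in this way. Among genes with a median of at least 50 CPM, a level more than 4 times off the median of the 6 libraries was found for 1 of 68 ribosomal protein genes and for 44 of 3031 genes overall (1.45%). The 44 include genes low in each of libraries 746, 748 and 749, such as Ctrb1 and Pyy. Their share is therefore not that of genes missing from a single library. At 2 times off the median, Rpl35a joined Rps2, with 257 UMIs and 2.13 times the median in library 749. Rps2 was also the only gene of the whole table that in library 753 fell more than 8 times below every other library. The search covered genes with at least 30 UMIs in each other library, and no gene fell so in another single library. Rps2 had been named beforehand for this check, so finding it here is no independent support. Gapdh fell in this way in 753 and 746 together, the only pair of libraries searched. It had 4166, 3421 and 90 UMIs in the Aire+/+ and 28, 2245 and 3954 in Aire-/-. Rps2 (chr17:24718116-24721929, + strand, mm10) shares words of its 3′ end with 51 other genes, and 20.7% to 43.0% of the words are its own. Its closest copy is the pseudogene Rps2-ps10. A copy with a row of its own in the table, Gm10653, had 4, 12 and 10 UMIs in the Aire+/+ and 7, 20 and 8 in Aire-/-. What set library 753 apart for this gene was not tested.

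**Figure D4:**
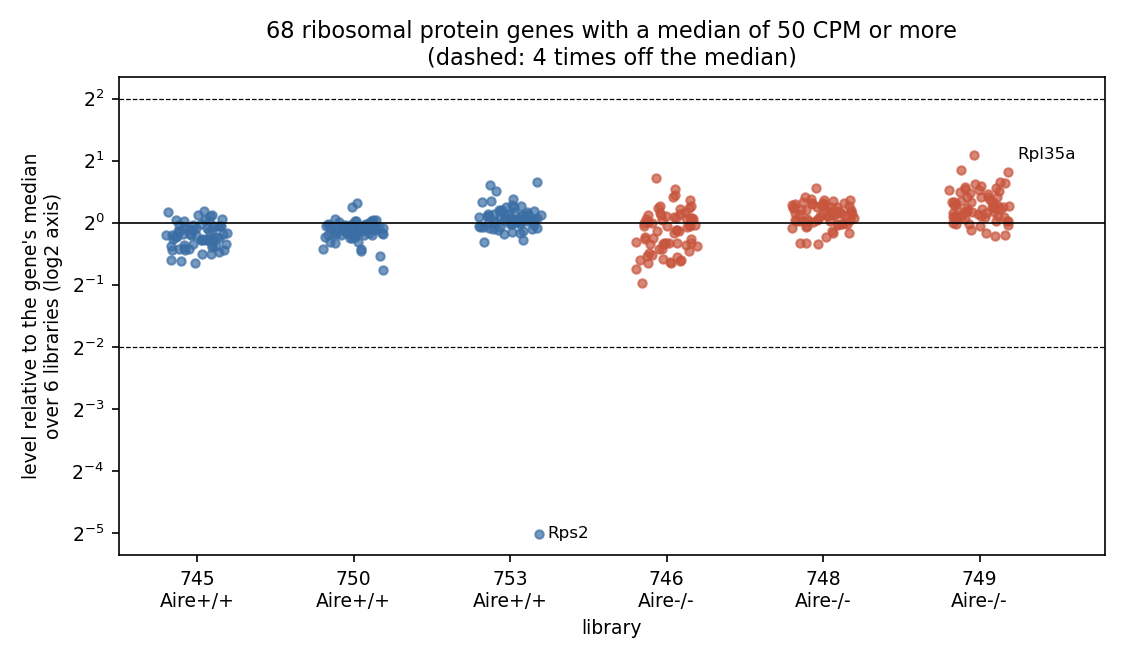
Level of each of the 68 ribosomal protein genes with a median of at least 50 CPM relative to its own median over the 6 libraries (y, log2 axis), by library (x axis), with dashed lines at 4 times off the median. All points but 1 lie between the dashed lines, and the exception is Rps2 in Aire+/+ library 753 at 0.0310 of its median.

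Levels ranged from 0.914 to 7588 CPM between the genes. Because a 3′ method counts each molecule once, UMIs need no correction for transcript length. Of the 80 genes, 56 had a mean of at least 1000 CPM over the 6 libraries, 11 lay from 100 to 1000 CPM and 13 were below 100 CPM, around a median of 1738 CPM. Rpl41, which encodes the shortest protein of the 60S subunit, was first with a mean of 7588 CPM. It stood at 5573, 6920 and 7194 CPM in the Aire+/+ and at 7759, 9390 and 8691 CPM in Aire-/-, apart but not past the test (log2 fold change 0.39, edgeR adjusted p = 0.0832). Rps14, a protein of the 40S platform, stood at 5434, 5673 and 7007 CPM in the Aire+/+ and at 5074, 7138 and 8432 CPM in Aire-/-, with overlap (0.19, edgeR adjusted p = 0.530). The levels of Rpl41 and Rps14 overlapped between libraries, as they did with those of Rplp1 and Rplp2 given above.

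At the other end, 12 genes had a mean below 50 CPM. They were Rpl3l (0.914 CPM), Rps15a (1.82), Rpl21 (2.27), Rps27 (3.85), Rpl34 (5.52), Rpl5 (10.05), Rpl32l (11.7), Rps24 (18.2), Rpl15 (19.7), Rpl7l1 (25.6), Rpl29 (40.5) and Rpl22 (47.3). Apart from Rpl3l, Rpl32l and Rpl7l1, these encode standard components of the ribosome, and the source of their low counts was not tested. Copies at the 3′ end were common but did not sort the genes by level. Of the 80 genes, 69 shared a 50-base word of a 3′ end with another gene, 28 shared words with 10 or more genes, and 52 had under 50% of words to themselves at their least specific end. Across the 80 genes, which are not independent replicates, Spearman's rho between that share and the mean level was -0.0051. The median of the mean level was 1674 CPM in the genes below 50% and 1865 CPM in the rest, and 7 of the 12 genes under 50 CPM were below 50%. The annotation holds 9 further genes that match the rule (Rpl10l, Rpl26, Rpl30, Rpl39l, Rpl6l, Rps12l1, Rps20, Rps3a2 and Rps3a3), which were not analysed here.

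**Figure D5:**
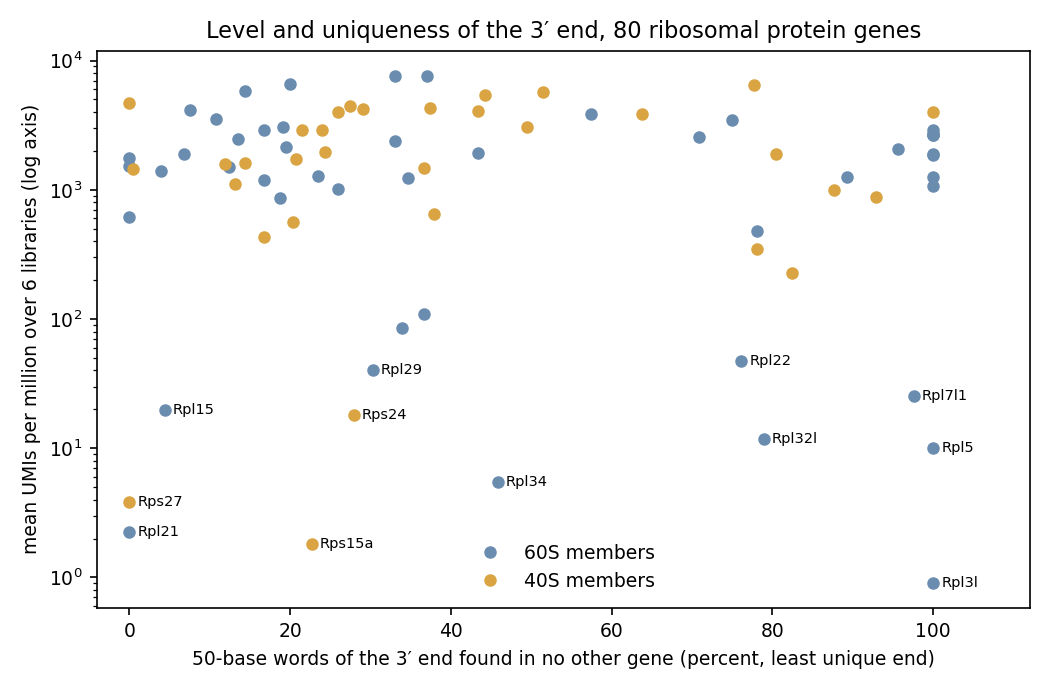
Mean level of each of the 80 ribosomal protein genes over the 6 libraries (y, log axis, CPM) against the percent of 50-base words at its least specific 3′ end that no other gene holds (x axis), for genes of the 60S and 40S subunits. High and low levels occur across the whole range of the x axis, and Spearman's rho was -0.0051.

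The 3 genes that did not pass the filter gave too few UMIs for a test. Rpl21 had 10, 10 and 6 UMIs in the Aire+/+ and 1, 4 and 3 in Aire-/-. Rps15a had 6, 3 and 5 UMIs and 4, 4 and 0. Rpl3l, a form of the peptidyl-transferase protein Rpl3 known from skeletal muscle and heart, had 10, 2 and 3 UMIs in the Aire+/+ and 0, 1 and 0 in Aire-/-. Its parent Rpl3 had 3600, 3634 and 3896 UMIs in the Aire+/+ and 1366, 2407 and 2160 in Aire-/-. A library without a UMI of a gene may still hold as many as 3 by counting error alone, worth 0.984 to 1.01 CPM for Aire+/+ and 1.61 to 3.08 CPM for Aire-/-, so levels of this size were at the limit of detection in the shallower libraries.

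Several ribosomal protein genes have a related second gene, described here beside the first. Whether the second can take the place of the first was not tested. Rpl22l1, a paralog that can substitute for Rpl22 in the 60S subunit, stood at 123, 116 and 161 CPM in the Aire+/+ and at 57.5, 89.8 and 109 CPM in Aire-/-. Its groups were apart, and its log2 fold change of -0.61 ± 0.20 was just short of the threshold (edgeR adjusted p = 0.0507). Rpl22 stood at 43.0, 42.3 and 52.7 CPM in the Aire+/+ and at 43.1, 45.2 and 57.5 CPM in Aire-/-, with overlap (0.09, edgeR adjusted p = 0.774). The UMIs of Rpl22l1 per UMI of Rpl22 were therefore 2.86, 2.75 and 3.05 in the Aire+/+ and 1.33, 1.99 and 1.90 in Aire-/-, or 2.89 ± 0.15 (SD, n = 3) and 1.74 ± 0.36 (SD, n = 3), with no overlap. The specific share of 3′ end words was 36.7% to 40.2% for Rpl22l1 and 76.1% to 100% for Rpl22. Another gene, Gm15421, held 61.8% of the words at the least specific end of Rpl22l1. Gm15421 has a row of its own in the table. The part of reads from copies in this ratio was not tested, nor how often ratios of other gene pairs do not overlap. Rps27l, a p53-responsive paralog of Rps27, stood at 328, 365 and 364 CPM in the Aire+/+ and at 345, 361 and 314 CPM in Aire-/- (-0.05, edgeR adjusted p = 0.826). Rps27 itself had 12, 6 and 15 UMIs in the Aire+/+ and 3, 10 and 6 in Aire-/-, and its least specific 3′ end had 0% of words to itself. Rps4l is annotated as a pseudogene. The ratio of Rps4l to Rps4x was 0.340 ± 0.088 (SD, n = 3) in Aire+/+ and 0.417 ± 0.188 (SD, n = 3) in Aire-/- libraries, with overlap. Rpl7l1 had 91, 86 and 57 UMIs in the Aire+/+ and 16, 55 and 49 in Aire-/-, a few percent of Rpl7 in each.

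Some rows of the table carry the name of a ribosomal protein pseudogene and fall outside the symbol rule. Of 6 such rows described here, each with a parent gene in the table, 3 were called higher in Aire-/- while the parent was not called. Of all tested genes, 8.59% were called higher. The other 3 rows (Rps6-ps4, Rpl31-ps12 and Rps15a-ps6) had too few UMIs for a test. Rpl14-ps1 had 75, 105 and 102 UMIs in the Aire+/+ and 50, 127 and 111 in Aire-/- (log2 fold change 1.02 ± 0.19, edgeR adjusted p = 0.00151), while Rpl14 was at -0.12 (edgeR adjusted p = 0.713). Rps19-ps3 had 47, 50 and 52 UMIs and 32, 48 and 51 (0.85 ± 0.20, edgeR adjusted p = 0.00912), while Rps19 was at 0.32 (edgeR adjusted p = 0.165). Rpl37rt had 469, 589 and 582 UMIs and 203, 612 and 563 (0.71 ± 0.18, edgeR adjusted p = 0.0141), while Rpl37 was at 0.01 (edgeR adjusted p = 0.985). The difference between each copy and its parent was not tested. At the least specific 3′ end, 52.2% of words were specific for Rpl14-ps1, 74.5% for Rps19-ps3 and 8.98% for Rpl37rt. Rpl14 held 47.8% of the words of Rpl14-ps1, and Rpl37 held 81.2% of those of Rpl37rt. The values of these copies may therefore hold reads of the parent. In each of the 3 copies every Aire-/- library was above every Aire+/+ library on the scaled level. Among the 80 genes themselves, 2 are annotated as pseudogenes, Rpl32l and Rps4l. Rpl32l was at 0.97 ± 0.35 and not called (edgeR adjusted p = 0.0670), beside -0.13 for Rpl32 (edgeR adjusted p = 0.660).

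Genes that work with the ribosome were described from lists by name, to be read beside the 8.59% of all tested genes called higher and the 12.1% called lower. Of 4 ribosomal proteins outside the symbol rule, 1 was called higher in Aire-/-, Fau (0.64, edgeR adjusted p = 0.00687), which encodes a 40S protein fused to a ubiquitin-like peptide. Rpl36al (-0.52, 0.0556) and Rack1 (0.05, 0.852) were among those not called, each with its log2 fold change and edgeR adjusted p. Of 20 translation factors and other mRNAs known for TOP tracts, 2 were called higher (10%) and 1 lower (5%), with a median log2 fold change of 0.05. These were Tpt1 (1.05, edgeR adjusted p = 0.00329), an abundant TOP mRNA, Eif4b (0.56, 0.0164), a cofactor of the helicase that unwinds mRNA, and Eif3m (-0.47, 0.0327), a subunit of initiation factor eIF3.

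Factors that build the ribosome had a median below 0. Of 49 listed, 48 were in the table and 42 tested, with 1 called higher (2.38%, beside 8.59% of all tested genes) and 3 lower (7.14%, beside 12.1%), a median log2 fold change of -0.19 and 32 values below 0. Nop58 (-1.40, edgeR adjusted p = 0.000594) and Nop56 (-0.73, 0.00461), core proteins of the particles that methylate ribosomal RNA, and Nmd3 (-0.72, 0.0313), the export adaptor of the 60S subunit, were lower. Riok2 (1.25, edgeR adjusted p = 0.000447), a kinase of 40S maturation, was higher. The difference between these factors and the ribosomal proteins was not tested. Of 71 mitochondrial ribosomal proteins, which belong to a separate ribosome, 66 were tested, with 5 called higher (7.58%), 2 lower (3.03%) and a median of -0.0044, so both shares were below those of all tested genes. Mrps35 (0.94) and Mrpl13 (0.86) were among the higher ones and Mrps18c (-0.78) and Mrpl42 (-0.57) were the lower ones. Of 12 regulators of ribosomal protein synthesis, 10 were tested, and 1 (10%) was called, Myc (1.19, edgeR adjusted p = 0.00172), a transcription factor known to drive ribosome production, which was higher in Aire-/-. These counts also moved with single libraries, and their ranges stand with the dependence on processing.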

How the data were processed

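MARS-seq libraries of sorted mTEChi (3 Aire+/+ and 3 Aire-/-, grouped by their titles) were analysed from one table. The raw UMI counts per gene used here were deposited by the authors. The normalized counts (a signal the authors made by dividing by size factors) and the log2 values of their regularized transform were not used, and the log2 fold changes and p-values of the authors' deposited table serve only where named. STAR 2.4.2a, HTSeq, DESeq2, cutadapt, bcl2fastq and the build mm10 are named without roles in the submitters' processing notes. The handling of multiply matching reads is not given in the sources used here.

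The quasi-likelihood test of edgeR 4.0.16 (under R 4.3.3) was fitted to the whole table, with TMM scaling, a single genotype term, a filterByExpr min.count of 10 (11956 genes kept, common dispersion 0.0241) and an adjusted p of 0.05 as the threshold. Standard errors are the fold change over the root of F. The steps were tested on simulated data drawn with the common dispersion, with 40 genes changed at each size. Changes to 1.5 and 0.667 times were called in 15% and 17.5% of genes. Changes to 2 and 0.5 times were called in 72.5% and 62.5%, and 5 of all 112 calls were false. A gene that was not called may therefore still differ by such amounts. The last 300 nt of every distinct 3′ end of the genes' basic protein-coding transcripts (of any transcript for pseudogenes) in GENCODE M21 were cut into 50-base words and searched in the transcripts of all other genes. Alternatives were library totals, TMM factors without these genes, DESeq2 1.42.0, other count filters and libraries left out. Intervals and floors cover counting error only, and depth ran from 1014581 to 2887321 UMIs. The genes and lists were chosen with earlier results of these data known. Genes were named when called, when 1 library stood apart, when among the 5 highest, for the stalk and Rpsa, for paralog pairs, or when untested, and up to 3 of each other list by smallest p; 2 genes so chosen are not reported here, and others were named after their values were seen.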

Additional observations from a re-analysis of the deposited data

How the results depend on the processing

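Rpl10 and Rpl10a were called higher, and Rpl39 and Rps3 lower, under each of the 12 alternatives to the reported fit; the other calls depended on the setting, and the cause was not tested. The 7 genes called higher and 2 lower became 4 and 5 with library totals alone (median log2 fold change 0.022), 13 and 4 with DESeq2, 14 higher with no filter, and 17 higher without libraries 753 and 746 (median 0.41). These stand beside 4.74% higher and 17.1% lower of all genes tested with library totals, 5.3% and 9.79% with DESeq2, 7.27% higher with no filter and 5.36% higher without those libraries (ribosomal protein genes 5.19% and 6.49%, 16.2% and 5%, 17.5%, and 22.1%). Leaving out 1 library gave 2 to 23 higher (2.6% to 29.9%) and 2 to 6 lower (2.6% to 7.79%), with a median of 0.13 to 0.36. Of all tested genes, the same fits called 5.23% to 8.8% higher and 9.29% to 14.5% lower. All 7 genes stayed among those called higher by DESeq2, and 5 of them among the 23 without library 746. In the order of ribosomal proteins outside the rule, translation factors, biogenesis factors, mitochondrial ribosomal proteins and regulators, leaving out 1 library gave 0 to 2, 1 to 3, 1 to 2, 2 to 4 and 1 to 4 called higher and 0 to 1, 0 to 2, 2 to 5, 0 to 4 and 0 to 1 called lower. With library totals, translation factors had 1 higher and 3 lower, biogenesis factors 8 lower, mitochondrial ribosomal proteins 2 higher and 7 lower, regulators 2 lower and proteins outside the rule 1 lower. DESeq2 gave 1 lower outside the rule, 0 lower translation factors, and 2 higher and 1 lower mitochondrial ribosomal proteins. Without libraries 753 and 746 there were 2 higher outside the rule, 0 lower translation factors, and 3 higher and 0 lower mitochondrial ribosomal proteins; regulators had 2 higher with min.count 3 and with no filter. The difference in summed share (Aire-/- minus Aire+/+) became 2.97 percentage points (60S 1.86, 40S 1.12) over the TMM-scaled size of all libraries. It became 2.20 (60S 1.35, 40S 0.851) without libraries 753 and 746. These had the highest Aire+/+ and the lowest Aire-/- share, so leaving out both had to widen the difference. Leaving out 1 library gave 0.128 to 1.61 points for all genes, 0.285 to 0.985 for 60S and -0.242 to 0.627 for 40S. At 2 times off the median, 2 genes had a library standing apart.

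Uncalled genes near 0 changed sign. With library totals alone Rps14 was at -0.0094, Rpl3 at -0.0704, Rpl7l1 at -0.18, Rpl7 at -0.10, Rpl22 at -0.11 and Rps4x at -0.13. Leaving out 1 library gave -0.16 (753) to 0.21 (746) for Rpl7l1, with -0.086 without 748 and -0.084 without 749, -0.0502 (749) to 0.19 (753) for Rpl22, -0.25 (749) to 0.25 (746) for Rps4x, with -0.0719 without 750, and -0.0912 (750) to 0.32 (746) for Rps27, with -0.0777 without 748. Rps27l was at 0.0066 without 749. No paired analysis was possible because the library numbers differ between the genotypes. Depth limits the lowest genes: 3 UMIs are 3.08 CPM in library 746, and the mean levels of Rpl21, Rpl3l and Rps15a lie below that.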
